A study of Mus musculus with 23 samples.

Results

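Heat shock proteins and chaperones were followed in cultured mouse cortical astrocytes treated with the thyroid hormone T3, with CHX (read here as cycloheximide, an inhibitor of translation), or with both. Members were taken by name: protein-coding genes whose symbols begin with Hspa, Hspb, Hsp90, Hspd, Hspe, Hsph, Dnaja, Dnajb, Dnajc, Cct followed by 2 to 8, or Bag followed by a digit, together with Tcp1 and Hsf1. The rule used no measured value and found 89 of the 38293 identifiers in the count files, which include 21250 protein-coding genes. By family these were 13 HSP70 genes (with Hsph1), 3 HSP90 genes, 2 genes of the mitochondrial chaperonin (HSP60 and HSP10), 8 genes grouped as small heat shock proteins, 4 DNAJA, 13 DNAJB and 28 DNAJC genes, 9 genes of the CCT chaperonin, 6 BAG genes, Hsf1, and Hspbp1 and Hspbap1, which carry the Hspb letters but are not small heat shock proteins. The group of 8 was formed by the Hspb name alone, and Hspb11 is in it for that reason only. Of the 89 members, 81 had enough reads to be tested.

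RNA was sequenced from 23 libraries of primary neocortical astrocytes taken at postnatal day 3 from a mixed-strain background (129/OLa and 129/Sv together with BALB/c and C57BL/6), grown for 7 days and stated to be more than 95% astrocytes. All cultures were held for 24 h in 0.1% serum depleted of thyroid hormone. The groups were 24 h T3 (10 nM, n = 3), 24 h control (n = 4), 6 h CHX plus T3 (CHX at 8 µg/ml from 30 min before T3 at 10 nM, n = 4), 6 h CHX (n = 4), 6 h T3 (10 nM, n = 4) and 6 h control (n = 4). The control groups had neither agent, there was no CHX group at 24 h, and the labels do not say whether libraries of a group came from separate cultures or litters, so each p-value measures the spread between libraries, which may be technical.

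Chaperones bind unfolded or partly folded proteins and help them fold, assemble or move to degradation. HSP70 proteins do this in cycles of ATP hydrolysis: J-domain proteins of the DNAJA, DNAJB and DNAJC families deliver substrates, and BAG and HSP110-type proteins release the nucleotide. HSF1 switches on the heat-inducible members when unfolded protein builds up in the cytosol, while the unfolded protein response does so for members of the endoplasmic reticulum (ER). In astrocytes the small heat shock proteins Hspb1 and Cryab are known as markers of stressed or reactive cells.

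The libraries held 13843040 to 22997873 reads assigned to genes, and the members took 0.896% to 0.922% of them in the 8 libraries with CHX, against 0.978% to 1.06% in the other 15. Levels are given as CPM, read counts set against library sizes that edgeR scaled by TMM (trimmed mean of M values), so they are relative to the rest of the RNA, and in such bulk cultures fewer cells of a type and less RNA per cell cannot be told apart. Astrocyte markers summed to between 7461 and 12010 CPM in each library, markers of vascular and meningeal cells to 1350 to 2988 CPM, of the oligodendrocyte lineage to 448 to 885 CPM, of ependymal cells to 358 to 1107 CPM, of neurons to 426 to 581 CPM, and of microglia to 20.7 to 76.9 CPM. The T3-responsive gene Hr had 233 ± 13.9 CPM at 24 h with T3 and 17.6 ± 1.03 without, 113 ± 5.39 at 6 h with CHX plus T3 and 15.7 ± 1.16 with CHX, and 205 ± 14.7 with T3 and 10.8 ± 1.32 without (SD, n = 3 or 4). Libraries differed within groups. In 24 h T3 replicate 1, 42.3% of alignments were not unique, against 37.3% and 37.5% in the other 2, and 6 h CHX replicate 4 was run on lane 6 while the other 3 were on lane 5; counts are also given without this pair. In 6 h control replicate 4, 42.1% of alignments were not unique, against 37.3% to 39.2% in the other 3. Without that library the counts of members higher and lower were 4 and 0 for T3 at 6 h, 21 and 28 for CHX, and 19 and 29 for 24 h against 6 h, beside 4 and 1, 20 and 30, and 18 and 32 with it. The counts over all genes without that library are not given, so these shifts cannot be read as particular to the members. Lane also separates whole groups, since all 6 h T3 and 6 h control libraries were on lane 5 and all 6 h CHX plus T3 libraries were on lane 6; the 24 h libraries were on lane 6 except 24 h T3 replicate 3, on lane 7. In fits with lane as a covariate, the contrast of lane 6 with lane 5 therefore rests on 1 library, 6 h CHX replicate 4.

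Promoter sequence is shown for members of both programmes named above, the heat shock response and the ER response, since the comparisons that follow set them side by side. RefSeq windows of GRCm38.p6, 250 bases before to 50 bases after each start, were given for 72 of the 89 members. Each stretch below is written 5′ to 3′ on the strand of the gene, with the motif in capitals. A pair of facing heat shock units, GAANNTTC (the same on both strands), is in 17 of the 72 members. Some members have more than 1 window. By window, it is in 19 of the 92 member windows (20.7%) and in 7.86% of all 32851 windows. The Hspa1a and Hspa1b windows matched at 296 of 300 bases, and the stretch of Hspa1a printed here is the same in Hspa1b.
Hspa1a (chr17:34972223-34972290, reverse strand): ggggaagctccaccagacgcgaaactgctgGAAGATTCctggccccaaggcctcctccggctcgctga
Bag3 (chr7:128523595-128523632, forward strand): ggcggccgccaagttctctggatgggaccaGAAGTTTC
The longer run of heat shock units, GAANNTTCNNGAA or TTCNNGAANNTTC on the other strand, contains the shorter one. It is in 0.603% of all windows and in 6 of the 92 member windows (6.52%), which belong to 4 members, Dnajb6, Hspd1, Hspe1 and Hsph1.
Hsph1 (chr5:149636266-149636330, reverse strand): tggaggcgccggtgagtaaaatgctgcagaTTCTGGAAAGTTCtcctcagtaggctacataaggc
Hspe1 (chr1:55088029-55088106, forward strand): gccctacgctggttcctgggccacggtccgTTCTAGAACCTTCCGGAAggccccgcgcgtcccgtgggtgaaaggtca
The ER stress response element, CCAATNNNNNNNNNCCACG or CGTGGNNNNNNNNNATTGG on the other strand, is in 0.119% of all windows. It is in 3 of the 92 member windows (3.26%), those of Hspa5, Hsp90b1 and Dnajc3.
Hspa5 (chr2:34771995-34772073, forward strand): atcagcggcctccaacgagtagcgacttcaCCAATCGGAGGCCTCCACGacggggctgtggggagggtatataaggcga
Hsp90b1 (chr10:86705503-86705686, reverse strand): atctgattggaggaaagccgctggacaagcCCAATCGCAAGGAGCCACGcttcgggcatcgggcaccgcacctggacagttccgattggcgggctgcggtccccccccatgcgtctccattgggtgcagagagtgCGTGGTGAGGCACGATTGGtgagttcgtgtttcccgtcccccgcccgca
Dnajc3 (chr14:118937797-118937875, forward strand): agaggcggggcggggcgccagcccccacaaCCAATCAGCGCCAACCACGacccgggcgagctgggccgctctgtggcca
A match describes the letters of these windows and shows no binding.

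In untreated cultures at 6 h, Hsp90ab1, the constitutive cytosolic HSP90, had the highest level per exon length of the 81 tested members, 817 CPM per kb of exon, and made up 86.2% of the HSP90 family on that scale. Among HSP70 genes the order per kb was Hspa5 (the ER chaperone BiP, 115), Hspa9 (mitochondrial mortalin, 97.6), Hspa4 (an exchange factor of the HSP110 type, 62.1) and Hspa8 (the constitutive cytosolic HSC70, 53.1). The stress-inducible Hspa1b and Hspa1a stood at 1.55 and 0.824 CPM per kb, and Hspa12b at 0.0881 was the lowest of the family. Hspb8 had 90.2 CPM per kb and led the small heat shock proteins, of which Hspb1 was the lowest tested at 1.87. The tested CCT members ran from Cct2 at 150.5 to the testis subunit Cct6b at 0.145 CPM per kb. Cct6a is not among the 9 CCT members found, so this range does not cover the whole complex. BAG genes ran from Bag1 at 117 to Bag4 at 3.21, and DNAJA genes from Dnaja2 at 73.2 to Dnaja4 at 4.44. DNAJB genes ran from Dnajb11 at 29.6 to Dnajb3 at 0.968, and DNAJC genes from Dnajc3 at 43.9 to Dnajc22 at 0.108. Exon lengths are unions over all annotated transcripts, which lowers the level of genes with retained introns. Reads that align to more than 1 place were not counted, which can lower genes that share sequence with others. Of 50-base transcript windows, 39.4% of Hspa8, 47.5% of Hsp90aa1, 50.1% of Hspb1 and 42.1% of Hspd1 also occur in other genes. For Hsp90ab1 this was 3.44%, and for Hspa5 and Hspa4 0%, so these ranks and family shares are uncertain. The 8 untested members were Dnajb8 and Dnajc5g, at 0 reads in all 23 libraries, and Cct8l1, Dnajb7, Dnajc5b, Hspb3, Hspb7 and Hspb9, with at most 8 reads in any library.

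CHX for 6 h changed 50 of the 81 tested members. Hspa8, Hspa2, Hspa1a and Hspa1b of the HSP70 family and the J-domain partner Dnajb1 fell, Hsf1 itself and the exchange factors Hsph1 and Hspa4 rose, and the ER chaperone Hspa5 was not called. In all, 20 were higher and 30 lower with CHX (edgeR quasi-likelihood test, Benjamini-Hochberg adjusted p under 0.05 over 16087 genes), or 61.7%, beside 67.5% of all genes tested. By direction, 37.0% of all genes were higher and 30.6% lower. The members' median log2 change was -0.08, against 0.06 over all genes. Changes of at least 2-fold were called for 3 members upwards (Cct6b, Hspbap1 and Dnajc1) and 7 downwards (Hspa2, Hspa8, Hspa1b, Dnajb1, Hspa1a, Bag3 and Dnajc14), beside 11.7% and 5.79% of all genes. After removal of a trend with length and GC from each library the counts were 18 higher and 46 lower. That step moved the all-gene median to -0.05 and gave 5107 higher and 6054 lower of 15894 genes.

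**Figure D1:**
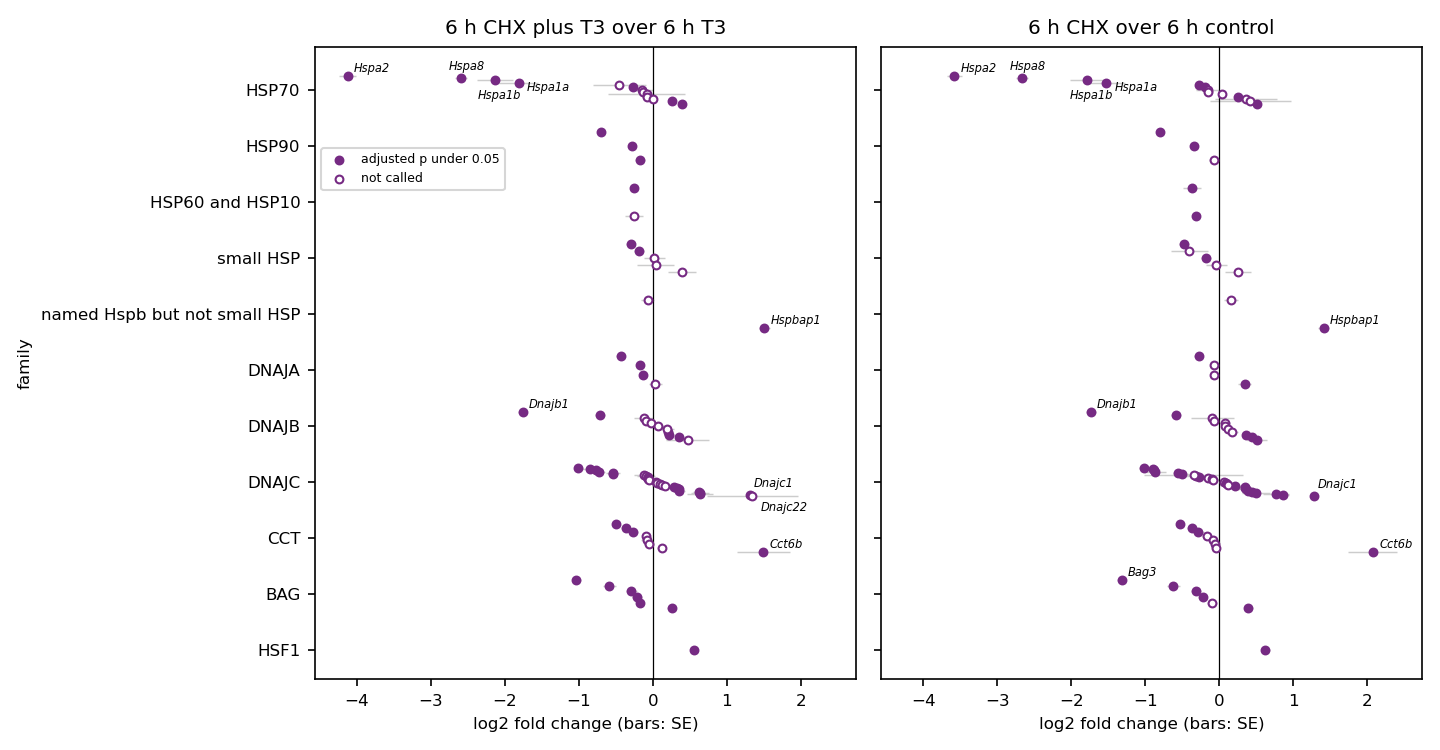
Log2 fold change of each tested member by family, 6 h CHX plus T3 over 6 h T3 (left) and 6 h CHX over 6 h control (right); filled points passed the adjusted p threshold of 0.05 and bars are standard errors. Hspa2 and Hspa8 lie furthest to the left in both panels, at -4.13 and -2.59 on the left and -3.58 and -2.67 on the right.

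Hspa8 (Ensembl ENSMUSG00000015656, chr9:40800984-40810087, forward strand, GRCm38), the constitutive HSP70 of the cytosol that also strips clathrin from vesicles, had 38.5, 35.1, 36.4 and 33.5 CPM in the 6 h CHX libraries, against 224, 218, 204 and 266 CPM in the 6 h control libraries. All 4 CHX libraries lay far below all control libraries, and the log2 change was -2.67 ± 0.08, adjusted p = 3.97e-19. Under T3 the levels were 37.9, 36.0, 31.7 and 40.0 CPM in the 6 h CHX plus T3 libraries, against 197, 231, 227 and 221 CPM with T3 alone, a log2 change of -2.59 ± 0.08. Of the 50-base windows of Hspa8 transcripts, 39.4% also occur in other genes, 12 of them pseudogenes; reads that align to more than 1 place were not counted, so its level is uncertain.

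Hspa2 (ENSMUSG00000059970, chr12:76404176-76406938, forward strand), an HSP70 most abundant in testis and also present in brain, had 4.27, 5.01, 3.77 and 4.48 CPM with CHX, against 51.9, 53.2, 49.9 and 54.6 CPM without. The groups were widely separated, with a log2 change of -3.58 ± 0.11, adjusted p = 4.12e-19. In the presence of T3 it had 3.59, 4.04, 3.35 and 3.05 CPM with CHX, against 57.9, 64.7, 62.7 and 59.1 CPM without, a log2 change of -4.13 ± 0.11. None of its windows is shared with another gene. Its T3 effect was -0.33 under CHX and 0.22 without CHX, and the difference of the 2 effects, -0.55 ± 0.16, adjusted p = 0.0886, missed the threshold.

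The stress-inducible pair Hspa1a (ENSMUSG00000091971, chr17:34969190-34972156, reverse strand) and Hspa1b (ENSMUSG00000090877, chr17:34956436-34959238, reverse strand) was low in every group and lower with CHX. Hspa1a had 0.893, 1.02, 1.07 and 0.432 CPM with CHX, against 3.15, 2.5, 2.68 and 1.44 CPM in controls, a log2 change of -1.53 ± 0.25, adjusted p = 7.36e-06. Hspa1b had 1.54, 1.24, 1.86 and 0.378 CPM with CHX, against 4.02, 3.94, 4.89 and 4.54 CPM in controls, a log2 change of -1.79 ± 0.23, adjusted p = 1.78e-07. No CHX library reached any control library for either gene, but these values rest on 8 to 19 reads of Hspa1a and 7 to 33 reads of Hspa1b per CHX library. Between 62.3% and 66.3% of their windows are shared with other genes, mainly with each other, so the split of reads between them is uncertain. Under T3 the log2 changes were -1.81 ± 0.27 for Hspa1a and -2.14 ± 0.24 for Hspa1b; with lane as a covariate both calls ended, at -0.62 (adjusted p = 0.44) and -0.13 (adjusted p = 0.892).

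Other HSP70 genes moved little or the other way. Hsph1, an HSP110-type exchange factor, had 143, 144, 151 and 155 CPM with CHX, against 108, 107, 100.5 and 102 CPM in controls, and rose (0.51 ± 0.05, adjusted p = 1.35e-09). Hspa4, of the same type, rose by a log2 change of 0.26 ± 0.04. The mitochondrial Hspa9 fell (-0.27 ± 0.04), and Hspa13, an HSP70 of the ER, fell (-0.19 ± 0.06). Hspa5 had 496, 481, 513 and 506 CPM with CHX, against 508, 481, 443 and 518 CPM in controls, overlapping groups with a log2 change of 0.03 ± 0.05, adjusted p = 0.547. Over all 13 genes the HSP70 level per kb summed to 343 ± 6.74 CPM per kb with CHX and 407 ± 19.8 in controls (SD, n = 4 each). Hspa8 stood at 8.35 CPM per kb with CHX and 53.1 in controls, and Hspa2 at 1.66 with CHX and 19.8 in controls.

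**Figure D2:**
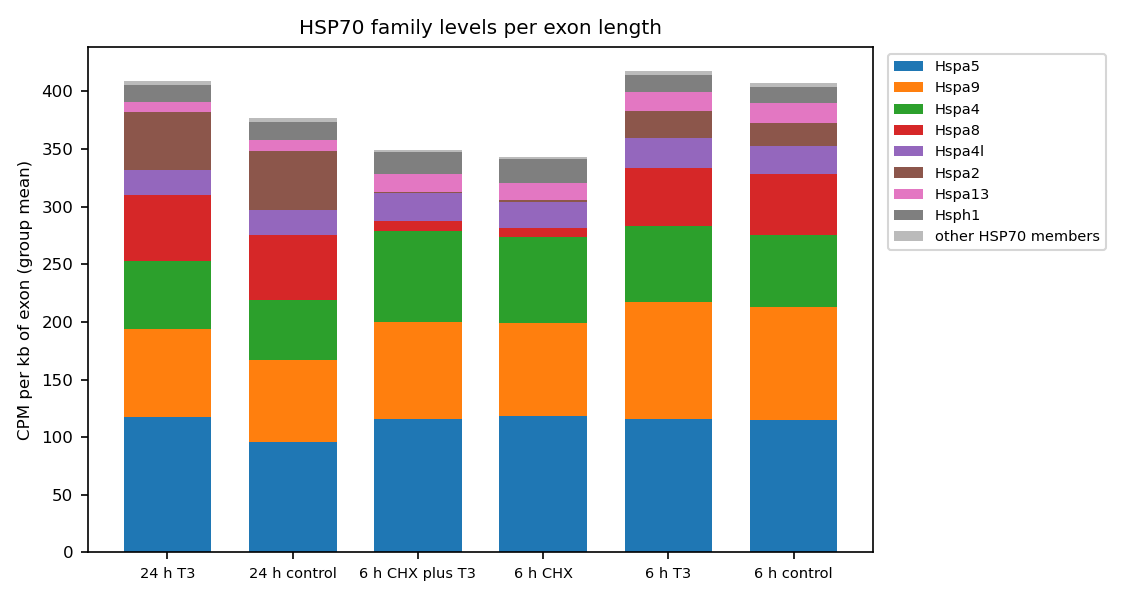
Stacked group means of HSP70 members, in CPM per kb of exon, in the 6 groups (no error bars; the SD of the family sums with CHX and in the 6 h control is in the text). Hspa8 and Hspa2 shrink to thin bands in both CHX groups, while Hspa5 stays between 95.6 and 118 CPM per kb in all 6 groups.

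Both J-domain partners and cochaperones of cytosolic HSP70 followed in part. Dnajb1 (ENSMUSG00000005483, chr8:83608193-83612653, forward strand), the main heat-inducible J-domain protein of the cytosol, had 18.0, 17.9, 18.2 and 17.8 CPM with CHX, against 65.0, 58.3, 54.6 and 61.0 CPM in controls. These groups were far apart and the spread within CHX was small; the log2 change was -1.73 ± 0.06, adjusted p = 1.78e-17. Bag3 (ENSMUSG00000030847, chr7:128523616-128546981, forward strand), which links HSP70 and Hspb8 to selective autophagy, had 54.6, 55.0, 56.9 and 45.7 CPM with CHX, against 133, 123, 139.8 and 132 CPM in controls (-1.32 ± 0.06, adjusted p = 4.13e-15). Its lowest value was in 6 h CHX replicate 4. In the presence of T3, Bag3 fell by 1.04 on the log2 scale and Dnajb1 by 1.76.

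The remaining BAG and DNAJ genes went both ways. Of 6 BAG genes 4 were lower and 1 higher with CHX: the exchange factor Bag1 (-0.62 ± 0.09), Bag4 (-0.31 ± 0.07) and Bag6 (-0.22 ± 0.04) fell beside Bag3, and Bag5 rose (0.39 ± 0.06). Of 4 DNAJA genes Dnaja1 fell (-0.28 ± 0.06) and Dnaja4 rose (0.35 ± 0.09). Of 11 tested DNAJB genes 3 were higher (Dnajb4, 0.36 ± 0.05, Dnajb2, 0.45 ± 0.07, and Dnajb13, 0.51 ± 0.14) and 2 lower (Dnajb1 and the ER protein Dnajb9, -0.58 ± 0.07). The call on Dnajb4 ended once the trend with length and GC was removed (0.13, adjusted p = 0.0514). Dnaja4 and Dnajb13 were not called for CHX in the presence of T3. DNAJC genes were split, with 10 higher and 8 lower of 26 tested.

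Dnajc1 (ENSMUSG00000026740, chr2:18195654-18392830, reverse strand), a J-domain protein of the ER membrane, had 151, 156, 154 and 152 CPM with CHX, against 62.4, 65.9, 64.9 and 59.2 CPM in controls, a log2 change of 1.28 ± 0.05, adjusted p = 7.46e-17. All 4 CHX libraries were far above the highest control library. It overlaps exons of Mllt10 on the other strand over 749 bases, and the libraries do not mark strand; Mllt10 itself had a log2 change of 0.09 ± 0.08 (adjusted p = 0.343). Dnajc21, which in human and yeast takes part in maturation of the large ribosomal subunit, rose (0.86 ± 0.08), as did Dnajc17 (0.77 ± 0.18), Dnajc11 (0.45 ± 0.05), a protein of the mitochondrial membranes, and Dnajc5 (0.35 ± 0.05), the cysteine string protein of synaptic vesicles. In the other direction Dnajc14 (-1.02 ± 0.06), the ER disulfide reductase Dnajc10 (-0.90 ± 0.05), Dnajc16 (-0.88 ± 0.08) and Dnajc18 (-0.56 ± 0.07) fell. Dnajc14 overlaps exons of Ormdl2 and Tmem198b on the other strand over 1252 bases. Of its windows 19.2% are shared with other genes. The ER cochaperone Dnajc3 was not called (0.09 ± 0.06, adjusted p = 0.197).

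Called members of the HSP90, HSP60 and HSP10 and small heat shock protein families were all lower with CHX, while the CCT family had 3 lower and 1 higher. Hsp90ab1 (ENSMUSG00000023944, chr17:45567775-45573271, reverse strand) had 1448, 1407, 1465 and 1304 CPM with CHX, against 2414, 2421, 2490.0 and 2474 CPM in controls (-0.80 ± 0.05, adjusted p = 3.59e-13). The groups did not overlap. The family summed to 1841 ± 85.3 CPM with CHX and 2972 ± 40.1 CPM in controls (SD, n = 4 each). Its inducible paralogue Hsp90aa1 was not called (-0.07 ± 0.07, adjusted p = 0.349), and the ER paralogue Hsp90b1 fell (-0.34 ± 0.05). Of Hsp90aa1 windows 47.5% are shared with other genes, so its level is uncertain. The mitochondrial chaperonin genes Hspd1 (-0.31 ± 0.05) and Hspe1 (-0.37 ± 0.12) both fell. Of 8 tested CCT genes Tcp1 (-0.53 ± 0.05), Cct2 (-0.36 ± 0.06) and Cct5 (-0.28 ± 0.07) fell, and Cct6b rose (2.08 ± 0.33) on no more than 27 reads per CHX library.

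Small heat shock proteins had no member higher. Hspb8, the partner of Bag3, had 132, 133, 130.2 and 112 CPM with CHX, against 172, 177, 168 and 186 CPM in controls (-0.47 ± 0.07, adjusted p = 1.56e-06). Hspb6 fell by less (-0.18 ± 0.06), and Hspb1 at 0.992, 1.19, 2.03 and 1.73 CPM with CHX, against 1.98, 2.33, 1.98 and 1.44 CPM in controls, was not called. Hspbap1 (ENSMUSG00000022849, chr16:35770375-35828477, forward strand), named for binding Hspb1, had 27.3, 26.8, 24.8 and 28.5 CPM with CHX, against 10.3, 9.42, 10.8 and 9.85 CPM in controls, and rose (1.41 ± 0.08, adjusted p = 8.34e-14). Its groups were well separated. Hspbap1 overlaps exons of Gm26838 on the other strand over 430 bases, and 4.08% of its windows are shared with other genes.

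Hsf1 (ENSMUSG00000022556, chr15:76477422-76501913, forward strand), the transcription factor of the heat shock response, was higher with CHX while its inducible targets Hspa1a, Hspa1b and Dnajb1 were lower. It had 59.6, 57.9, 59.2 and 64.5 CPM with CHX, against 37.7, 38.4, 40.7 and 39.6 CPM in controls (0.63 ± 0.06, adjusted p = 4.4e-10). With T3 present it had 56.8, 58.9, 56.7 and 58.6 CPM with CHX, against 37.8, 38.9, 42.5 and 37.6 CPM without (0.56 ± 0.06, adjusted p = 3.17e-09). Of 14 tested members whose window holds GAANNTTC, 10 were lower and 2 higher with CHX, with a median log2 change of -0.365. Of the 51 tested members whose window lacks it, 12 were lower and 15 higher, with a median of -0.037. Over all genes tested, 30.6% were lower and 37.0% higher. The 14 are not independent, since the Hspa1a and Hspa1b windows matched at 296 of 300 bases. Exons of Hspd1 and Hspe1, also among them, overlap by 112 bases. For the longer run of heat shock units, 2 of 4 were lower and 1 higher with it, and 20 of 61 lower and 16 higher without. For this longer run the median log2 change was -0.071 in both sets. Members without a window, Hspa8 and Hsp90ab1 among them, are in none of these counts. The same counts over all genes were not made, and a part of the motifs in the changes was not tested. Members printed above went different ways: Hspa1a, Bag3 and Hspe1 fell and Hsph1 rose. Of the 3 members with the ER stress response element, Hsp90b1 fell, and Hspa5 and Dnajc3 were not called.

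**Figure D3:**
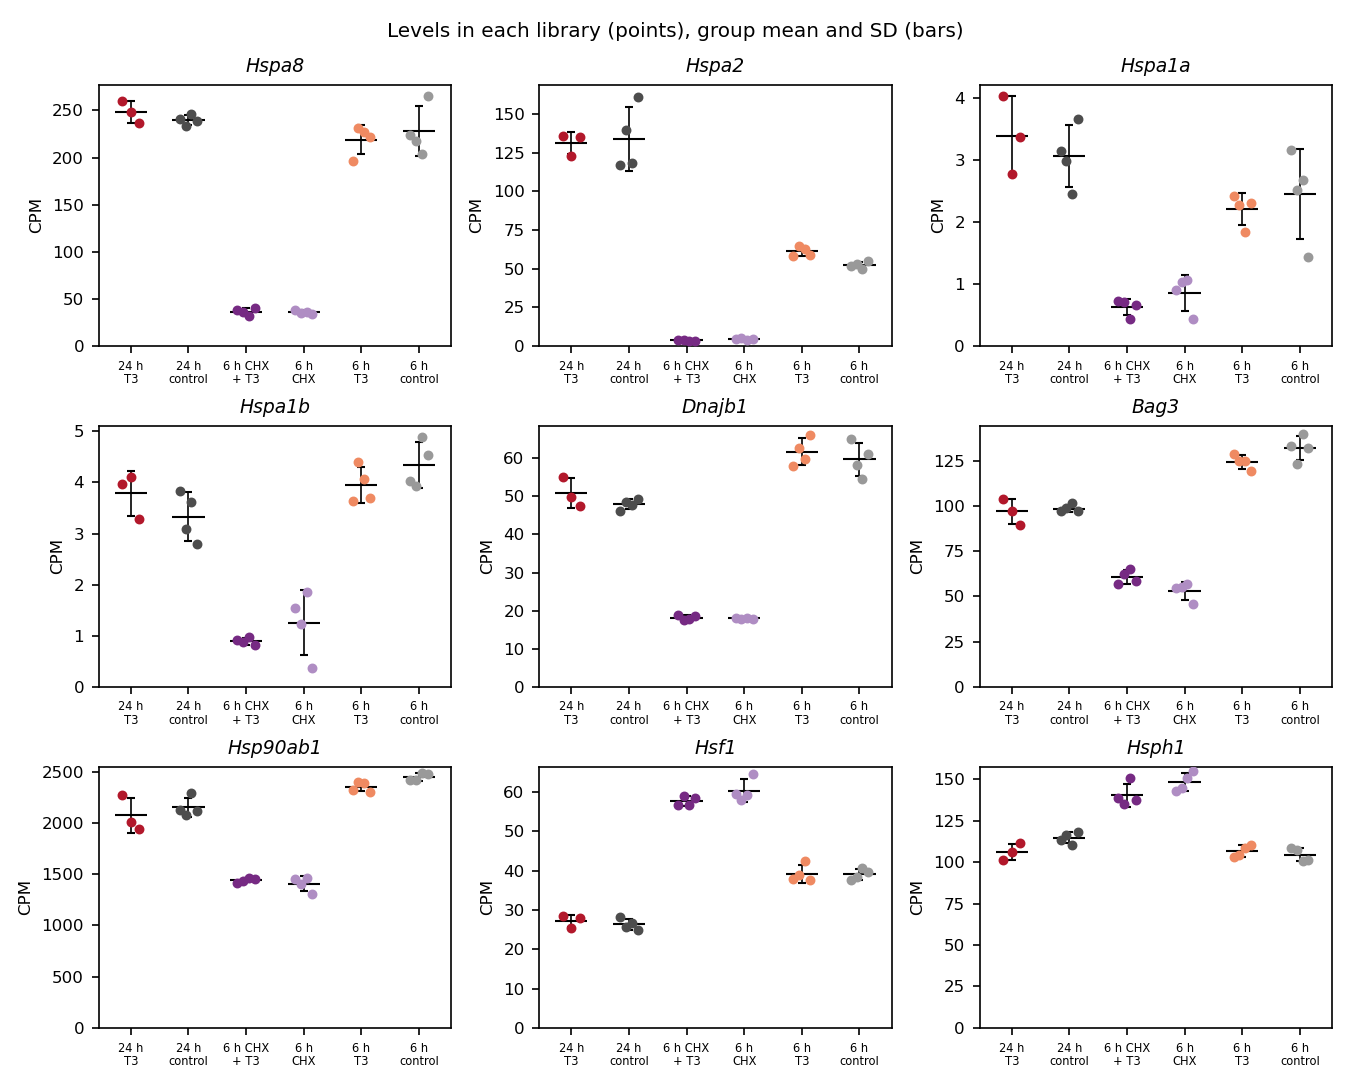
CPM of 9 members in every library (points) with the group mean and SD (bars) in the 6 groups. Hspa8, Hspa2, Hspa1a, Hspa1b, Dnajb1, Bag3 and Hsp90ab1 are lower in both CHX groups than in the other 4, and Hsf1 and Hsph1 are higher.

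The effect of CHX was measured a second time in libraries that share none with the first, 6 h CHX plus T3 against 6 h T3. Here 17 members were higher and 30 lower, 58% of those tested beside 67.3% of all genes (36.3% higher and 31.0% lower), with a median log2 change of -0.08 against 0.04 over all genes. In the higher direction 16 members were called both times, 80% of the 20 and 94.1% of the 17. In the lower direction 26 were called both times, 86.7% of each list, and 0 members were called in opposite directions. Of the calls named above, Dnaja4 and Dnajb13 (higher) and Hspa13 and Hspe1 (lower) were called only without T3. Hsp90aa1 was called lower only with T3. For 66 of the 81 members the 2 log2 changes lay within 0.25 of each other. Neither the overlap nor this agreement was computed over all genes, of which 67.5% and 67.3% were called in the 2 comparisons. These shares therefore do not set the members apart from other genes. The second comparison is set across lanes, and with lane as a covariate it called 11 members higher and 18 lower, beside 4262 and 3327 of 16087 genes. The first comparison, within lane 5 alone, called 19 members higher and 34 lower, beside 5363 and 5346 of 15428 genes. Without 24 h T3 replicate 1 together with 6 h CHX replicate 4 it called 21 higher and 32 lower, beside 5984 and 5020 of 16262 genes.

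Other chaperone-system genes, from lists drawn up beside the rule, were counted too. With CHX, 37.0% of all genes were higher and 30.6% lower. Of 7 tested heat-inducible genes outside the families, 6 were lower with CHX and 1 higher: the polyubiquitin gene Ubb (-1.03 ± 0.12), Hmox1 (-0.92 ± 0.06) and Cryab (-0.50 ± 0.12) fell, and Atf3 (3.78 ± 0.14) rose. Their median log2 change was -0.50. Of 19 ER chaperone and unfolded protein response genes 12 were lower and 4 higher. The lower ones included Xbp1 (-1.65 ± 0.08), Edem1 (-1.37 ± 0.06) and Sel1l, which serve ER-associated degradation and its regulation. Atf4 (3.14 ± 0.07; 805 ± 40.9 CPM with CHX and 91.6 ± 5.21 CPM in controls, SD, n = 4 each) and Ddit3 (3.04 ± 0.10), transcription factors of the stress response to reduced translation, were higher.

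HSP90 cochaperones were mixed, with 7 of 17 higher, Stip1 (0.38 ± 0.06) among them, and 3 lower, including Fkbp4 (-0.50 ± 0.07) and Ahsa1 (-0.35 ± 0.07). For these counts and those that follow, the share of all genes with CHX was 37.0% higher and 30.6% lower. Of 8 HSP70 cochaperones and exchange factors 1 was higher and 3 lower. Hsf2 rose (0.36 ± 0.06) and the HSF1-binding protein gene Hsbp1 fell (-0.25 ± 0.08). Prefoldin and CCT partners had 4 of 9 lower, with Pdcl at -1.16 ± 0.06, and 1 higher. Of 6 mitochondrial quality-control proteases 3 rose, including Htra2 (1.34 ± 0.09) and Clpx (0.76 ± 0.05), and 1 fell. Beside these changes, 7 of 10 astrocyte markers also fell with CHX, and the list summed to 7804 to 9473 CPM in the 6 h CHX libraries, against 10160 to 11000 CPM in the 6 h control libraries. In the presence of T3 it summed to 7461 to 7931 CPM with CHX, against 11870 to 12010 CPM without. Oligodendrocyte lineage markers summed to 458 to 515 CPM with CHX, against 768 to 885 CPM in controls, and vascular and meningeal markers to 1350 to 1801 CPM with CHX, against 2131 to 2263 CPM in controls. The part of these markers in the members' changes was not tested.

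T3 for 6 h called 4 members higher and 1 lower, or 6.17% beside 3.77% of all genes (2.61% higher and 1.16% lower). The members' median log2 change was 0.01, against 0.00 over all genes, and 18 members had an unadjusted p under 0.05. The share of all genes at that unadjusted threshold was not computed, so the 18 cannot be read as particular to the members. No called member reached 2-fold. Each of the 5 calls ended when 1 or another library of the comparison was left out.

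Hspb6 (ENSMUSG00000036854, chr7:30552178-30555443, forward strand), a small heat shock protein known from muscle and also present in astrocytes, was the 1 member called with T3 at both times. At 24 h it had 89.5, 77.4 and 73.2 CPM with T3, against 52.0, 58.2, 52.6 and 58.0 CPM in controls (0.53 ± 0.07, adjusted p = 4.93e-06). At 6 h it had 76.0, 75.7, 73.8 and 69.2 CPM with T3, against 60.3, 60.4, 62.8 and 68.4 CPM in controls (0.23 ± 0.06, adjusted p = 0.0388). The groups did not overlap at either time. Lin37 and Proser3 overlap it over 125 bases and had log2 changes at 24 h of 0.06 ± 0.14 and -0.07 ± 0.16, neither called. Under CHX it had 61.8, 62.6, 56.9 and 58.5 CPM with T3, against 55.1, 55.0, 58.6 and 54.2 CPM without (0.10 ± 0.06, adjusted p = 0.494), and the groups overlapped. The T3 effect at 6 h with CHX differed from that without by -0.12 ± 0.09, adjusted p = 0.628, and the effect at 24 h from that at 6 h by 0.31 ± 0.09, adjusted p = 0.111; both missed the threshold. The 6 h call ended without 6 h T3 replicate 1, 2 or 3 or 6 h control replicate 1, 2 or 3 (adjusted p up to 0.127), whereas the 24 h call was kept in all 33 settings tried (0.45 to 0.60).

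Hspb8 went down at 6 h, with 134, 161, 148 and 141 CPM with T3, against 172, 177, 168 and 186 CPM in controls (-0.27 ± 0.07, adjusted p = 0.0247). No T3 library reached a control library. Its call ended without 6 h T3 replicate 1, 3 or 4 or 6 h control replicate 2 or 4 (adjusted p up to 0.103). At 24 h it had 147, 137 and 134 CPM with T3, against 154, 154, 169 and 161 CPM in controls, and was not called (-0.20 ± 0.07, adjusted p = 0.119). These 2 small heat shock proteins thus had calls in opposite directions at 6 h, and both windows hold 1 GAANNTTC match.

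Dnaja4, a type I J-domain protein, had 19.2, 20.6, 21.7 and 21.3 CPM with T3, against 14.97, 16.2, 17.5 and 15.2 CPM in controls, without overlap (0.37 ± 0.09, adjusted p = 0.0149). It shares 42.7% of its windows with Wdr61, whose exons lie across 1581 bases of it on the other strand, and Wdr61 itself had a log2 change of 0.01 ± 0.07 (adjusted p = 0.951). Dnajc21 had 18.5, 17.8, 16.9 and 19.6 CPM with T3, against 14.8, 14.2, 12.9 and 15.5 CPM in controls, again without overlap (0.35 ± 0.08, adjusted p = 0.0162). Dnajb13, a J-domain protein of cilia and sperm flagella, had 9.48, 8.78, 9.69 and 10.5 CPM with T3, against 6.74, 6.02, 5.99 and 8.71 CPM in controls (0.50 ± 0.14, adjusted p = 0.0424). Ucp2 overlaps it on the other strand over 305 bases and had a log2 change of 0.19 ± 0.11 (adjusted p = 0.412). The Dnaja4 call ended without 6 h control replicate 1 or 6 h T3 replicate 3 or 4 (adjusted p up to 0.0563), the Dnajc21 call without 6 h control replicate 2 or 3 or 6 h T3 replicate 4 (up to 0.0787), and the Dnajb13 call in 10 settings (up to 0.149).

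**Figure D4:**
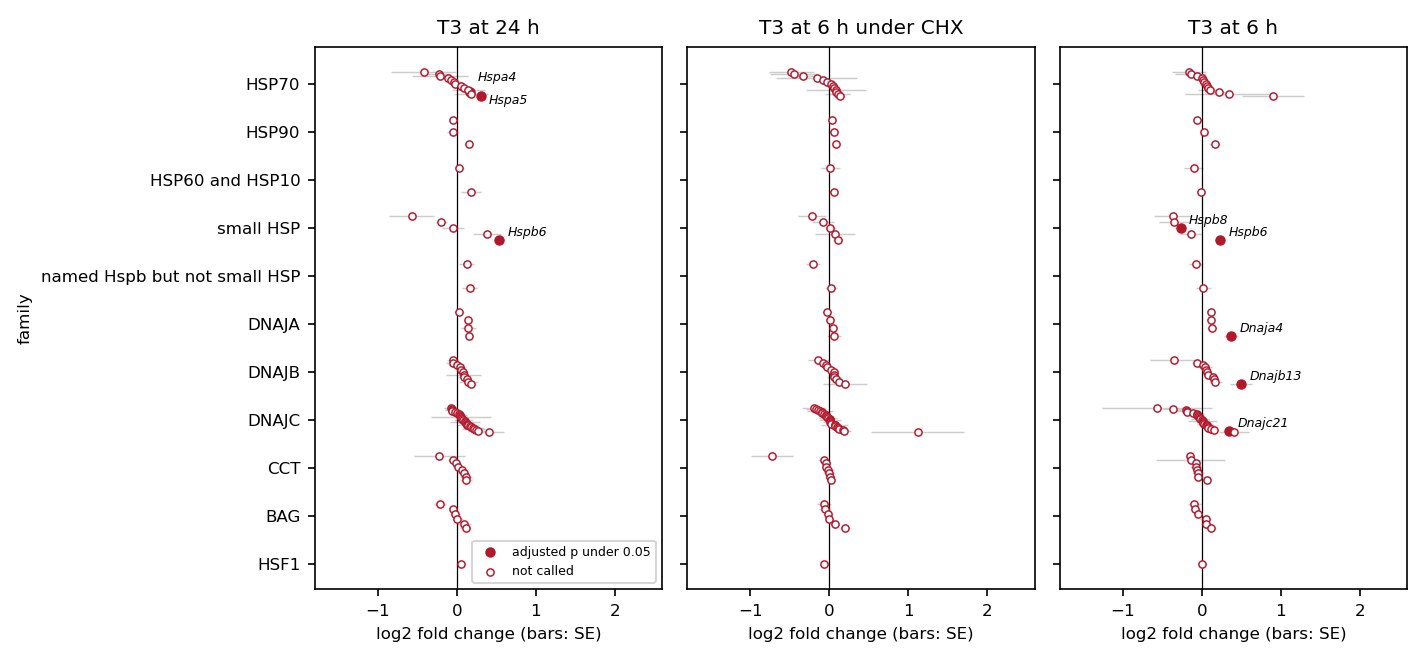
Log2 fold change of each tested member by family for T3 at 24 h, T3 at 6 h under CHX and T3 at 6 h; filled points passed the adjusted p threshold of 0.05 and bars are standard errors. The 3, 0 and 5 called members are named, and most members lie close to 0 in all 3 panels.

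With CHX present, T3 for 6 h called 0 members, beside 1.29% of all genes (1.16% higher and 0.131% lower) by the edgeR quasi-likelihood test. At an unadjusted p under 0.05 there were 5, and DESeq2 called 0. The share of all genes at the unadjusted threshold was not computed, here or for the difference given below. Bag3 came nearest, at 56.7, 62.4, 65.0 and 58.6 CPM with CHX plus T3, against 54.6, 55.0, 56.9 and 45.7 CPM with CHX (0.19 ± 0.06, adjusted p = 0.172). The 5 members called at 6 h without CHX had log2 changes under CHX of 0.10 ± 0.06 for Hspb6, 0.01 ± 0.07 for Hspb8, 0.06 ± 0.09 for Dnaja4, 0.11 ± 0.08 for Dnajc21 and -0.14 ± 0.13 for Dnajb13. The difference between the T3 effects with and without CHX was called for 0 members, beside 1.22% of all genes (0.584% higher and 0.634% lower) by the same test, with 9 at an unadjusted p under 0.05; DESeq2 called 1 higher and 1 lower. For Dnajb13 the difference was -0.64 ± 0.19, adjusted p = 0.0957, and for Hspb8 0.28 ± 0.10, adjusted p = 0.159.

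T3 for 24 h called 3 members, all higher: Hspb6, Hspa5 and Hspa4. That is 3.7% of the members, beside 7.09% of all genes (4.41% higher and 2.68% lower). The median log2 change was 0.06 among members and 0.00 over all genes. Without 24 h T3 replicate 1 together with 6 h CHX replicate 4 the count was again 3, but Hspa4 was not among them. Over all 16262 genes then tested, 653 were higher and 426 lower. Within lane 6 alone the count of members was 2, beside 505 genes higher and 222 lower of 16566.

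Hspa5 (ENSMUSG00000026864, chr2:34771970-34777547, forward strand), the chief HSP70 of the ER, had 535, 478 and 483 CPM with T3 at 24 h, against 399, 395, 409.6 and 414 CPM in controls (0.30 ± 0.05, adjusted p = 0.000396). All T3 libraries were above all controls, and the call was kept in all 33 settings (0.25 to 0.33). At 6 h it had 468, 492, 504 and 498 CPM with T3, against 508, 481, 443 and 518 CPM in controls (0.01 ± 0.05, adjusted p = 0.951), with overlap. The difference of the effects at 24 h and 6 h was called (0.29 ± 0.07, adjusted p = 0.0496), the 1 member so called, or 1.23% beside 0.839% of all genes (0.541% higher and 0.298% lower). That call was close to the threshold and ended in 22 of the 32 alternatives, among them without 24 h T3 replicate 1 (0.24, adjusted p = 0.124). Hspa4 had 321, 319 and 335 CPM with T3, against 280.5, 286, 309 and 286 CPM in controls (0.16 ± 0.05, adjusted p = 0.042), and its call ended in 21 of 33 alternatives, with adjusted p up to 0.298.

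Some genes on the ER list were also called higher at 24 h. Of 19 genes 5 were higher with T3 and 0 lower, beside 4.41% and 2.68% of all genes, with a median log2 change of 0.08. The 5 were the calcium-binding chaperone Calr (0.35 ± 0.07), Creld2 (0.43 ± 0.11), Manf (0.31 ± 0.09), Xbp1 (0.25 ± 0.08) and the disulfide isomerase Pdia3 (0.19 ± 0.05). Without 24 h T3 replicate 1 the count was 1, and in a fit of only the groups compared it was 0. At 6 h it was 0, also by DESeq2. Members of the ER outside that list were not called at 24 h: Hsp90b1 had 312, 277 and 294 CPM with T3, against 261, 264, 282 and 256 CPM in controls (0.15 ± 0.06, adjusted p = 0.125), Dnajc3 had a log2 change of 0.13 ± 0.07 (adjusted p = 0.259) and Dnajb11 one of 0.18 ± 0.06 (adjusted p = 0.07). Hsbp1 was higher at 24 h (0.38 ± 0.08), while Hsf1 was not called (0.05 ± 0.06, adjusted p = 0.733). The Hsbp1 call ended in at least 1 of the fits that left out 1 library.

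**Figure D5:**
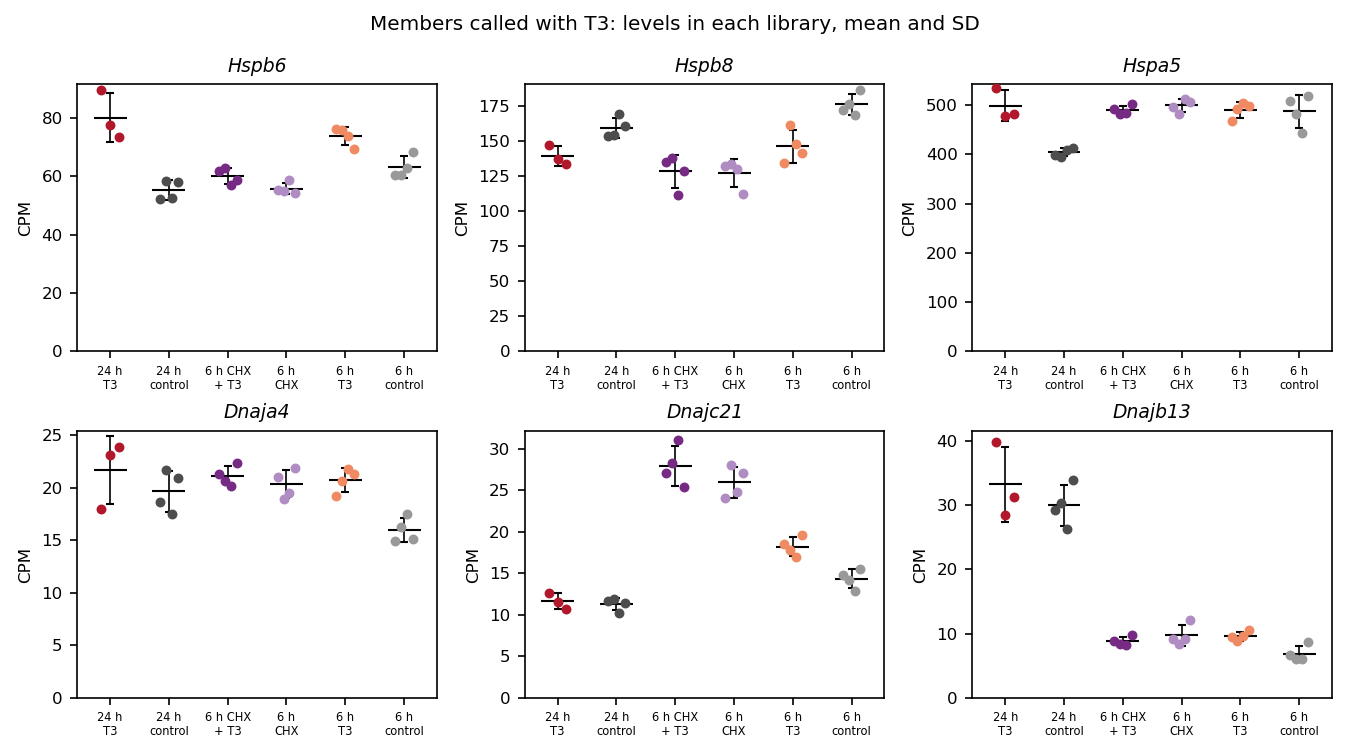
CPM of the 5 members called with T3 at 6 h and of Hspa5 in every library (points) with the group mean and SD (bars). Hspb6 is higher with T3 than in its control at 24 h and at 6 h, and Hspa5 at 24 h.

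Untreated cultures also differed between 24 h and 6 h, a comparison in which time and lane cannot be told apart, since the 24 h control libraries were on lane 6 and the 6 h control libraries on lane 5. Here 18 members were higher and 32 lower at 24 h, or 61.7% beside 56.6% of all genes (28.2% higher and 28.4% lower), with a median log2 change of -0.12 against 0.00 over all genes. After the same removal of the length trend and GC trend the counts were 12 higher and 43 lower. Over all 15894 genes then tested, that step gave 3902 higher and 6096 lower, with a median of -0.09. With lane as a covariate the members' counts were 8 higher and 13 lower, beside 2148 and 2266 of 16087 genes. Changes of at least 2-fold were called for 7 members upwards (Dnajc22, Dnajb13, Hspa12b, Dnajb3, Hspa2, Cct6b and Hspa1l) and 0 downwards, beside 8.77% and 2.24% of all genes. In the 6 h control, Dnajc22, Hspa12b, Cct6b and Hspa1l stood at 0.108, 0.0881, 0.145 and 0.159 CPM per kb. These genes rest on few reads, and 71.4% of Hspa1l windows are shared with other genes. Dnajb3 stood at 0.968, Dnajb13 at 2.51 and Hspa2 at 19.8 CPM per kb in that group.

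Hspa2 had 117, 139.5, 118 and 161 CPM at 24 h, against 51.9, 53.2, 49.9 and 54.6 CPM at 6 h (1.35 ± 0.08, adjusted p = 2.76e-12), and no 24 h library was near the 6 h range. Dnajb13 had 29.2, 30.4, 26.2 and 34.0 CPM at 24 h, against 6.74, 6.02, 5.99 and 8.71 CPM at 6 h (2.13 ± 0.13, adjusted p = 2.85e-12), and Ucp2 on its other strand also rose (0.98 ± 0.11). Ependymal markers, a list of ciliated cells led by Foxj1, summed to 881 to 1107 CPM in the 24 h control and 358 to 492 CPM in the 6 h control; their part in the Dnajb13 result was not tested. Of other marker lists, 6 of 8 neuron markers were higher and 1 lower at 24 h (median log2 change 0.49), 4 of 8 microglia markers were higher (0.57), and 3 of 7 oligodendrocyte lineage markers were higher and 2 lower (0.49); their part in the members' changes was not tested. Hspa12a (0.76 ± 0.15), Dnajc28 (0.64 ± 0.08), Dnajc12 (0.44 ± 0.13), Dnajc15 (0.37 ± 0.12), Dnajc7 (0.18 ± 0.06) and the testis J-domain gene Dnajb3 (1.68 ± 0.25) were also higher; the calls on Hspa12a, Dnajc15 and Dnajc7 ended with lane as a covariate.

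Lower members at 24 h included ER and mitochondrial chaperones. Hspa13 had 62.1, 66.1, 69.4 and 64.9 CPM at 24 h, against 121, 111, 113 and 126 CPM at 6 h (-0.84 ± 0.06, adjusted p = 8.55e-11). Dnajb9 (-0.71 ± 0.07), Hsp90b1 (-0.53 ± 0.05) and Hspa5 (-0.27 ± 0.05) fell in the ER. Dnajc3 fell by less (-0.14 ± 0.06), and its call ended in 12 alternatives, among them without any 1 of the 6 h control libraries or 24 h control replicate 1, 2 or 4 (adjusted p up to 0.102). In mitochondria Hspa9 (-0.46 ± 0.04) and Hspd1 (-0.42 ± 0.05) fell. Hsf1 had 28.1, 25.7, 26.8 and 24.8 CPM at 24 h, against 37.7, 38.4, 40.7 and 39.6 CPM at 6 h (-0.57 ± 0.06, adjusted p = 1.45e-08), without overlap. Dnajb5 (-0.50 ± 0.07), Dnajc16 (-0.43 ± 0.08) and Bag3 (-0.42 ± 0.06) were lower too; the Bag3 call ended with lane as a covariate (-0.14, adjusted p = 0.315).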

How the data were processed

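Libraries were made from 200 ng of RNA without strand marking and read as single 50 nt reads, per the labels. The deposited files hold raw counts of reads per Ensembl gene; the submitters' processing notes name Bowtie, TopHat, HTSeq, edgeR and the build GRCm38. For versions, annotation release and counting mode, nothing is given in the sources used here. All 5 closing lines of each file, which name no gene, were left out (no feature, 3.75% to 5.81%; ambiguous, 1.40% to 1.71%; not unique, 30.7% to 42.3%). Of 38293 identifiers 36429 were named from GENCODE M21.

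Counts were tested with edgeR 4.0.16 (R 4.3.3): TMM, filterByExpr with a minimum count of 10, 1 mean for each of the 6 groups over 23 libraries, quasi-likelihood F tests with 17 residual degrees of freedom, Benjamini-Hochberg adjustment over 16087 genes, called at an adjusted p under 0.05. Errors of log2 changes are standard errors. The steps were tested on simulated counts with 200 changed genes. Alternatives were DESeq2 1.42.0, RLE size factors, no filter, fewer groups, blocks, lane, a length and GC trend removed, and libraries left out.

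Members and lists were chosen with earlier results of these data known. Genes named are 21 fixed members, up to 10 called members each way per comparison with at least 1 CPM, the highest and lowest per family, and up to 5 per other list; Bag6, Cct5 and Dnajc17 fall outside this rule, as does Hspa1l, and were named after their values were seen. Genes under about 1 CPM rest on few reads. A gene that the rule would name from another list is not reported here.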

Additional observations from a re-analysis of the deposited data

Results flagged for a closer look

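In 210 groups of 4 libraries, 8 held a library far from the other 3, and chance alone flags about 1 group in 20. Dnajc3 had 267.5 CPM in 6 h CHX replicate 4, against 229.1 to 233.6 CPM in the other 3 libraries of that group, and 239.4 CPM in 6 h T3 replicate 2, against 255.5 to 257.3 CPM in its other 3. Hspb8 had 112.3 CPM in 6 h CHX replicate 4, where the other 3 had 130.2 to 133.4 CPM. Hspe1 had 22.59 CPM in 6 h CHX plus T3 replicate 3, where the others had 28.56 to 29.25 CPM. Summed over a family, BAG genes had 625.7 CPM in 6 h CHX replicate 3 (others 600.3 to 603.4), DNAJB genes had 503.2 CPM in 6 h CHX replicate 2 (others 525.3 to 528.1) and 584.3 CPM in 6 h T3 replicate 3 (others 570.8 to 571.0), and small heat shock proteins had 184.9 CPM in 6 h CHX replicate 4 (others 204.9 to 207.6). The T3 effect on Hspa5 was larger at 24 h than at 6 h by 0.293 on the log2 scale, by the test of the difference itself.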

How the results depend on the processing

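Of 2976 values recomputed for named calls, 2836 kept direction and call, 138 lost the call and 2 changed sign, both with lane as a covariate: Hspb8 for CHX in the presence of T3 (0.044) and Dnaja1 at 24 h against 6 h (-0.066). Counts of members are given as higher and lower. With the length and GC trend removed they were 4 and 2 for T3 at 6 h, 5 and 1 for T3 at 24 h, 1 and 0 for T3 under CHX, 18 and 46 for CHX, and 2 and 0 for the T3 effect under CHX minus that without (the CHX difference). Over all 15894 genes the counts were 508 and 498, 938 and 623, 311 and 42, 5107 and 6054, and 375 and 242, in that order. With lane as a covariate the members' counts were 1 and 0 for T3 under CHX, 11 and 18 for CHX in the presence of T3, 8 and 13 for 24 h against 6 h, 2 and 1 for the CHX difference, and 3 and 0 for the T3 effect at 24 h minus that at 6 h (the time difference). Over all 16087 genes they were 326 and 334, 4262 and 3327, 2148 and 2266, 399 and 567, and 313 and 208. Without the pair 24 h T3 library 1 and 6 h CHX library 4, T3 at 6 h gave 5 and 3 members, beside 754 and 437 of 16262 genes, and the time difference gave 0 members. DESeq2 gave 1 and 1 members for the CHX difference, beside 258 and 256 of 16087 genes. For the time difference it gave 3 members higher, beside 208 genes higher. With no filter, or only the groups compared, the time difference gave 0 higher, and with only the groups compared the CHX difference gave 1 lower. Over all genes these were 92 of 25727 and 35 of 15777 higher, and 244 of 15526 lower. The causes were not tested. Replicate numbers did not pair the libraries (correlations of same-numbered deviations of -0.088 to 0.131). A replicate block by title number gave 1 lower for the CHX difference, and a block by letter 2 lower, with 0 for the time difference. Over all 16087 genes, 213 and 203 were lower for the CHX difference. For the time difference the block by letter gave 118 genes higher and 95 lower. All-gene counts are not given for the ranges that follow, so they cannot be read as particular to the members. Leaving out 1 library at a time gave 1 to 4 higher and 0 to 3 lower for T3 at 6 h, 2 to 4 higher for T3 at 24 h, 18 to 21 and 28 to 37 for CHX, 17 to 20 and 29 to 34 for CHX in the presence of T3, 14 to 21 and 29 to 35 for 24 h against 6 h, 0 to 1 lower for the CHX difference, and 0 to 3 higher for the time difference.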
